A study of Mus musculus with 6 samples.

Results

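The proteasome is the protease that removes most short-lived and damaged proteins from animal cells. Its barrel-shaped core is built from rings of alpha subunits, which form the gate, and rings of beta subunits, which hold the cutting sites inside. A regulatory particle caps the core: its ATPase ring unfolds the substrate, and its base and lid subunits bind ubiquitin chains and take them off. Proteasome transcripts are made in all cells, and in hepatocytes DDC injury is known for aggregates of keratin and ubiquitin (Mallory-Denk bodies).

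Here 45 of the 14499 genes in the deposited table were taken as proteasome genes by name (Psma to Psmg followed by a number). Psmb8, Psmb9 and Psmb10, the interferon-inducible immunoproteasome subunits, were left out. The 45 are 8 core alpha genes, 7 core beta genes, 6 ATPase genes (Psmc), 14 genes of the lid and base series (Psmd), 4 activator genes (Psme) and 6 others. The 6 others are the assembly chaperone genes Psmg1 to Psmg4, the regulator Psmf1 and Psmc3ip. Psmc3ip matches the name pattern but encodes a partner protein that acts in meiotic recombination, and it is no proteasome subunit. Psmd5, Psmd9 and Psmd10 carry Psmd names but encode chaperones that assist assembly of the base and leave before the particle is complete.

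RNA-seq of total liver RNA covered 3 Arid1a_KO_DDC libraries, labelled hepatocyte-specific Arid1a knockouts, and 3 WT_DDC libraries, labelled wild type. All 6 came from mice of C57Bl/6; 129Sv background, postnatal 10 weeks of age, with 2 weeks of DDC injury, so no uninjured liver enters the comparison. DDC is a porphyrinogenic compound that injures hepatocytes and bile ducts. Arid1a encodes a subunit of the BAF chromatin remodelling complex. The labels name neither the Cre line behind the knockout nor the animal behind each library, so a p-value covers the variation among libraries, which may be technical in part. Values below are FPKM (fragments scaled to gene length and to the mapped fragments of the library), listed for replicates 1, 2 and 3 in that order.

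Depth was even. Between 11280 and 11712 genes per library reached 1 FPKM, and the estimated depth was 0.907 to 1.16 relative to WT_DDC replicate 1, with absolute depth unknown. Each depth estimate rested on 10 to 23 values and was sought only among ratios near 1, so it cannot show a large difference in depth. Alb, the hepatocyte albumin gene, ranked 3 by mean FPKM among 11839 tested genes. Arid1a itself (chromosome 4, 133679008 to 133756769 on GRCm38) was at 6.61, 5.01 and 3.81 FPKM in knockout and at 7.85, 5.48 and 5.98 FPKM in wild-type livers. The groups overlapped (limma adjusted p = 0.678). The value covers the whole gene and every liver cell type, exons beyond a deletion included, and is therefore no test of the knockout. Replicate 1 of both groups carries library numbers L0566 and L0567 and the other libraries L0602 to L0605. What these numbers stand for is not stated, and they are balanced over genotype.

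Proteasome transcripts were abundant and even in every library, and none passed the test between genotypes. Of the 45 genes, 44 reached 1 FPKM in 3 libraries or more and were tested. Their median of mean levels was 56.2 FPKM, against 7.91 FPKM over all genes tested, and 18 of the 44 ranked in the top 10% and 35 in the top 25%. Across the 6 libraries their median coefficient of variation was 10.8%, against 21.1% over all genes tested, and 42 of the 44 lay below that second value. The part of their higher level in this was not tested. No value of the 45 genes was listed at 0.

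**Figure D1:**
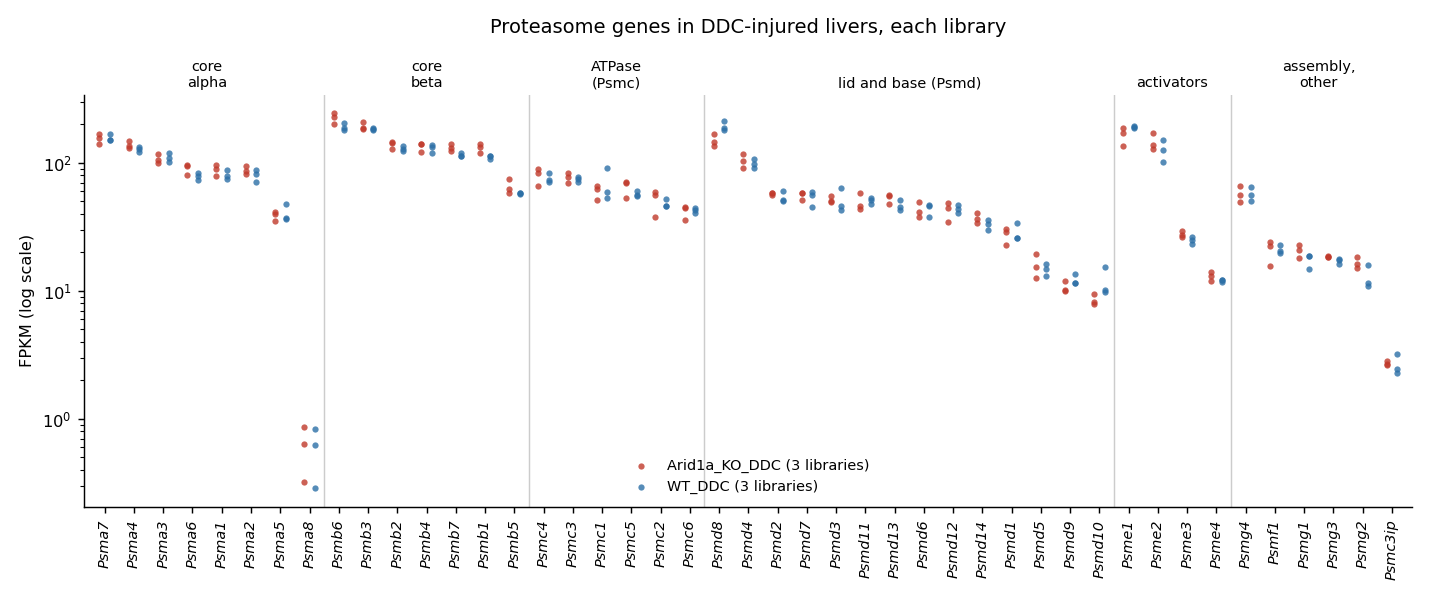
FPKM (log scale) of each proteasome gene in the 3 Arid1a_KO_DDC libraries (red, left of each pair) and the 3 WT_DDC libraries (blue, right), 1 point per library, ordered by mean level within each group of genes. Psmb6 stands highest at a mean of 207 FPKM and Psma8 lowest at 0.593 FPKM, and the colours lie close together for nearly every gene.

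The core alpha genes spanned a 3.92-fold range of mean level without Psma8. Psma7 was the most abundant, at 139, 157 and 168 FPKM in knockout and 168, 149 and 150 FPKM in wild-type livers. Psma5 was the least abundant of the 7, at 40.1, 41.3 and 35.0 FPKM in knockout and 47.2, 37.3 and 36.6 FPKM in wild-type livers. The order by mean level was Psma7, Psma4, Psma3, Psma6, Psma1, Psma2 and Psma5. Over all 6 libraries, Psma4 lay clear of Psma3, Psma3 of Psma6 and Psma2 of Psma5, and the other 3 neighbouring pairs overlapped. Psma8, which encodes the alpha subunit of the testis proteasome, was at 0.858, 0.322 and 0.637 FPKM in knockout and 0.627, 0.287 and 0.826 FPKM in wild-type livers. It stayed below 1 FPKM in every library and was not tested.

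Of the 7 alpha genes tested, 0 passed limma in either direction at an adjusted p under 0.05, with 0 at an unadjusted p under 0.05. Over all 11839 genes 0.49% passed the adjusted threshold, and 11.1% had an unadjusted p under 0.05. The alpha genes had a median log2 difference, on the log2(FPKM + 1) scale, of 0.10, with single values from -0.05 to 0.19. Psma6 had the smallest p, at 80.5, 96.1 and 94.4 FPKM in knockout and 83.5, 73.8 and 78.8 FPKM in wild-type livers (log2 difference 0.19, SE 0.13, limma adjusted p = 0.649). Knockout replicates 2 and 3 stood above all wild-type libraries and knockout replicate 1 among them. Psma1 had the next p, at 78.1, 96.6 and 89.6 FPKM in knockout and 87.1, 74.4 and 78.5 FPKM in wild-type livers (0.14, 95% interval -0.20 to 0.47), and its groups overlapped likewise.

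The core beta genes all had a positive difference, and none passed the test. Their median log2 difference was 0.16, with single values from 0.04 to 0.23, against 0.0034 over all genes tested, of which 50.6% were positive. With quantile normalization, and without WT_DDC replicate 3, 6 of the 7 were positive. Without Arid1a_KO_DDC replicate 2 the median was 0.074, and it was 0.24 without Arid1a_KO_DDC replicate 1 and in L0602 to L0605 alone. The groups did not overlap for 3 of the 7 (Psmb1, Psmb5 and Psmb7), and over all genes tested 16.6% did not overlap.

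The catalytic beta subunits are Psmb6 (caspase-like site), Psmb7 (trypsin-like site) and Psmb5 (chymotrypsin-like site). Psmb6 (chromosome 11, 70525367 to 70527858) was the most abundant proteasome transcript, at 199, 243 and 229 FPKM in knockout and 179, 187 and 203 FPKM in wild-type livers. Psmb7 (chromosome 2, 38588036 to 38644087) was at 123.2, 130.8 and 139.5 FPKM in knockout and 119.2, 113.3 and 111.6 FPKM in wild-type livers. Psmb5 (chromosome 14, 54614119 to 54618022) was the least abundant beta gene, at 58.3, 74.7 and 62.3 FPKM in knockout and 57.7, 57.9 and 57.3 FPKM in wild-type livers. For Psmb7 and Psmb5 every knockout library lay above every wild-type library, by a small margin in knockout replicate 1, while for Psmb6 the groups overlapped. The differences were 0.23 for Psmb6 (SE 0.14), 0.19 for Psmb7 (SE 0.12) and 0.16 for Psmb5 (SE 0.14), with limma adjusted p of 0.602, 0.622 and 0.711. The 95% intervals reached 0.56, 0.48 and 0.49, so a rise of 1 log2 unit lay outside each of them. Without knockout replicate 2 the Psmb5 difference was 0.063.

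Psmb1, a structural beta subunit, was at 118.5, 138.7 and 131.8 FPKM in knockout and 113.1, 111.8 and 107.1 FPKM in wild-type livers, again with no overlap and again short of the threshold (0.22, SE 0.13, limma adjusted p = 0.575). Psmb2, Psmb3 and Psmb4, the other structural beta genes, had differences of 0.11, 0.062 and 0.04 and groups that overlapped. Psmb3 was the steadiest proteasome gene, at 182, 207 and 185 FPKM in knockout and 180, 185 and 184 FPKM in wild-type livers, a coefficient of variation of 5.23% over the 6 libraries. By mean level the beta genes ran Psmb6, Psmb3, Psmb2, Psmb4, Psmb7, Psmb1 and Psmb5, with Psmb3 clear of Psmb2 and Psmb1 clear of Psmb5 in all 6 libraries.

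A processed pseudogene limits the value of Psmb5. Gm3375 matches the Psmb5 transcript at 98.9% identity over 796 of 899 bases and has its own row in the table, at 24.3, 35.2 and 33.3 FPKM in knockout and 25, 28.1 and 25.8 FPKM in wild-type livers. How fragments were shared between the pair is uncertain. Their sum was 82.6, 110 and 95.6 FPKM in knockout and 82.8, 86.0 and 83.2 FPKM in wild-type livers, and on the sum the groups overlapped. Exons of Psmb7 overlap Nek6 on the other strand over 11.8% of its exonic bases, and since no source states strand-aware counting, reads there cannot be told apart.

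Summed over the 7 beta genes, the level was 930, 1078 and 1029 FPKM in knockout and 915, 921 and 905 FPKM in wild-type livers. All 3 knockout libraries were higher, with 2 of them well apart and replicate 1 close to wild type. Summed over the 7 alpha genes, the level was 649, 749 and 710 FPKM in knockout and 721, 628 and 665 FPKM in wild-type livers, and the groups overlapped. The hepatocyte and cell cycle marker sums also lay apart between the groups, and limma called 0 of these markers in either direction. The summed hepatocyte markers (8 of 8 in the table, none at 0 in all libraries) were at 43883 to 53863 FPKM in knockout and 41261 to 43426 FPKM in wild-type livers. The lowest knockout sum and the highest wild-type sum lay close together. Alb, the largest part of this sum, overlapped between the groups, as did Apoa1, while Ttr did not. The median log2 difference of the 8 genes was 0.10, with 1 negative. The 5 cell cycle markers summed to 41.3 to 70.6 FPKM in knockout and 19.6 to 36.6 FPKM in wild-type livers. In knockout replicate 2, which had the highest beta sum, the hepatocyte sum was the lowest of the 3 knockout libraries. The cell cycle sum was the highest in that same library, at 70.6 FPKM. Median log2 differences were negative for the stellate and fibroblast (-0.48, 5 of 6 negative), endothelial (-0.33, 5 of 5) and biliary markers (-0.64, 5 of 6, with 1 called lower). The sums of these sets overlapped between the groups. The biliary sum was 208 to 420 FPKM in knockout and 126 to 386 FPKM in wild-type livers. The part of any of these in the beta sum was not tested. In total liver RNA, fewer cells of a type and less RNA per cell cannot be told apart.

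**Figure D2:**
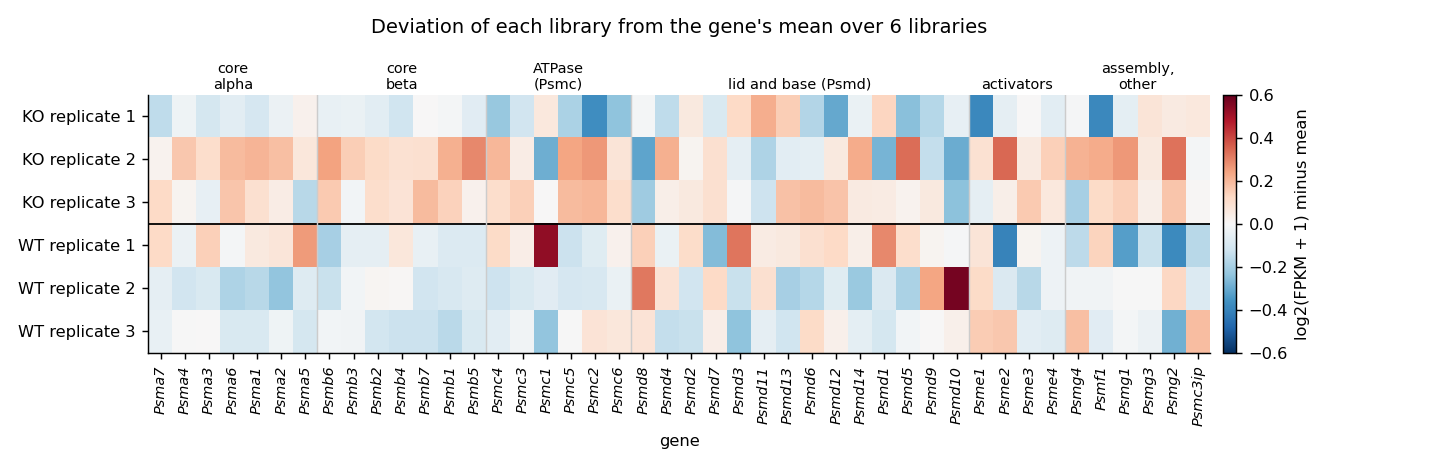
Deviation of log2(FPKM + 1) in each library (rows, 3 Arid1a_KO_DDC above 3 WT_DDC) from the mean of that gene over the 6 libraries (columns, 44 tested proteasome genes by group). Knockout replicates 2 and 3 are mostly above the gene means, and knockout replicate 1 and wild-type replicates 2 and 3 mostly below.

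Much of the variation ran along libraries and not along genotype. In knockout replicates 1, 2 and 3, 12, 34 and 35 of the 44 genes lay above their own mean, against 24, 11 and 12 in wild-type replicates 1, 2 and 3. Over all genes tested the share above the own mean was 44.6% to 52.7% in the knockout and 47.4% to 53.3% in the wild-type libraries. All 7 alpha and all 7 beta genes were above their mean in knockout replicate 2, and 1 of 7 in each set was so in knockout replicate 1. In wild-type replicate 2 none of the 7 alpha and 2 of the 7 beta genes were above their mean. The median deviation over the 44 genes was -0.056, 0.10 and 0.063 in knockout and 0.021, -0.079 and -0.042 in wild-type livers, on the log2 scale. The knockout replicates thus differed among themselves by more than the 0.063 that separated the genotypes.

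Promoter sequences are shown for 4 genes: the catalytic Psmb5 and Psmb6, Psmd12, a lid gene that holds both kinds of match described next, and Psmd8, the gene with the smallest p, which holds neither. NFE2L1 (NRF1) is known to raise proteasome genes through the antioxidant response element (ARE) when proteasome activity is low, and ETS factors act at many promoters without a TATA box. RefSeq (GRCm38.p6) gave windows from 250 bases before to 50 after the start site for 37 of the 45 genes, 40 windows in all. The ARE core was searched as TGACNNNGC or TGAGNNNGC and the ETS core as CCGGAAG, each on both strands. Capitals mark the matches, and each window is written 5′ to 3′ on the strand of the gene.
Psmb5, chr14:54617946-54618245, minus strand: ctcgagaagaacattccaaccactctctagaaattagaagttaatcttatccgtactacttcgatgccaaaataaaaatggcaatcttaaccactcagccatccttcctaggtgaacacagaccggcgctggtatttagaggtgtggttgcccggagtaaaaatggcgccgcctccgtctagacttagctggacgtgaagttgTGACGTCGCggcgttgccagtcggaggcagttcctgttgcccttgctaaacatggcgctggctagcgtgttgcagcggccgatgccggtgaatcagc
Psmb6, chr11:70525107-70525406, plus strand: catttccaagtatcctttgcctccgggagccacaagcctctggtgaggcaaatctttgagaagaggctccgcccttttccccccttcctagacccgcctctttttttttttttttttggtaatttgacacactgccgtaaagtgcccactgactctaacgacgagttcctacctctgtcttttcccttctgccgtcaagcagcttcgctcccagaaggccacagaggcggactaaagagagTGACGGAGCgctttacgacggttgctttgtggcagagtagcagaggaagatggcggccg
Psmd12, chr11:107479278-107479577, plus strand: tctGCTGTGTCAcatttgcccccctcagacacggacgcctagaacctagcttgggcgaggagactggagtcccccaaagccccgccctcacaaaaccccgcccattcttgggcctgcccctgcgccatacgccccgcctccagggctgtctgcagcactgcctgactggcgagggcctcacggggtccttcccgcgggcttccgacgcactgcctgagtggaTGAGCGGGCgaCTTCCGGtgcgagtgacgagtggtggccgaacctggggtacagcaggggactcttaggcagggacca
Psmd8, chr7:29180624-29180923, minus strand: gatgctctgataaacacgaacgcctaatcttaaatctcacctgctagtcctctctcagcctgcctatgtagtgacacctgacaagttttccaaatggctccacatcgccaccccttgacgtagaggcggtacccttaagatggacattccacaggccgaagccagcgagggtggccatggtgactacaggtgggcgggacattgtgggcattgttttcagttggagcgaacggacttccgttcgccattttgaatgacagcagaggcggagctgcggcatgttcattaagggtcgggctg

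The ARE core occurred once in the Psmb5 window, with its first base at -47 from the start site, and once in the Psmb6 window, at -9. Psmd12 held it at -247 and -28, and an ETS core at -17. Of the 40 proteasome windows, 18 (45%) held the ARE core, against 27.8% of all 32851 windows, and 23 (57.5%) held the looser TGANNNNGC, against 41.3%. The ETS core occurred in 16 of the 40 (40%), against 8.86% of all windows, and among its 15 genes were Psmc1, Psmc2, Psmc6, Psmd2 and Psmd11. The GC box GGGCGG stood in 57.5% and 35.7%, the CCAAT box in 32.5% and 37.4%, and TATAAA in 7.5% and 13.6%. Mean GC content was 58.7% in the proteasome windows and 53.8% in all windows, and its part in these shares was not tested. Nfe2l1 itself was at 23.9, 23.3 and 36.3 FPKM in knockout and 18.3, 37.3 and 27.7 FPKM in wild-type livers, spread more within each genotype than between them (log2 difference 0.031, limma adjusted p = 0.979).

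The ATPase genes, whose products form the unfolding ring, were the most even set in level. Their means ran from 42.1 FPKM (Psmc6) to 77.5 FPKM (Psmc4), a 1.84-fold range, and no neighbours in the order Psmc4, Psmc3, Psmc1, Psmc5, Psmc2, Psmc6 were clear of each other over all 6 libraries. Their median log2 difference was 0.049, but it was 0.15, -0.04 and -0.02 without knockout replicates 1, 2 and 3 in turn, 0.0076 without wild-type replicate 2, and 0.19 in L0602 to L0605 alone, so it has no stable sign. In the fit of all libraries 0 of 6 passed in either direction or had an unadjusted p under 0.05 in limma. Psmc5 had the smallest p, at 52.8, 71.2 and 68.9 FPKM in knockout and 55.0, 56.1 and 60.1 FPKM in wild-type livers (0.16, SE 0.16, limma adjusted p = 0.753). Psmc4 was at 65.7, 88.6 and 82.9 FPKM in knockout and 83.5, 70.6 and 73.7 FPKM in wild-type livers, and Psmc6 at 35.4, 44.4 and 45.2 FPKM in knockout and 42.7, 40.8 and 44.1 FPKM in wild-type livers. In all 3 genes knockout replicate 1 was the lowest of the 6 libraries, and Psmc2 showed it most, at 37.4 FPKM against 45.6 to 58.6 FPKM in the others.

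Psmc1 varied most among the ATPase genes, through 1 library. It was at 65.2, 50.7 and 62.5 FPKM in knockout and 90.7, 59.5 and 52.7 FPKM in wild-type livers, so that wild-type replicate 1 alone stood high (log2 difference -0.15, SE 0.23). Without that library the difference was 0.078. Psmc1 has 2 processed pseudogene transcripts of at least 95% identity in the annotation, neither of them in the table, and the effect of such copies on its counts was not tested.

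The Psmd series holds the base and lid subunits and the chaperones. Psmd1 and Psmd2, the base scaffolds, were at means of 27.8 and 55.6 FPKM over the 6 libraries. The 11 genes whose products stay in the particle spanned a 6.15-fold range, from Psmd1 to Psmd8, and had a median log2 difference of 0.035. Limma called 0 of the 14 Psmd genes higher or lower. At an unadjusted p under 0.05 there was 1 lower and 0 higher, against 6.5% lower over all genes tested.

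Psmd8 (chromosome 7, 29174188 to 29180701), a lid subunit whose yeast counterpart joins the lid last, was the proteasome gene with the smallest p. It was at 168, 136 and 146 FPKM in knockout and 187, 211 and 179 FPKM in wild-type livers. Every knockout library lay below every wild-type library (log2 difference -0.36, SE 0.14, 95% interval -0.70 to -0.013). The unadjusted p was 0.0439 and the limma adjusted p 0.43, so it did not pass. Psmd8 was also the most abundant Psmd transcript, clear of Psmd4 in all 6 libraries.

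The Psmd genes Psmd4 and Psmd14, whose products handle ubiquitin, overlapped between the genotypes. Psmd4, a ubiquitin receptor, was at 90.4, 117 and 103 FPKM in knockout and 97.8, 107 and 91.1 FPKM in wild-type livers (0.064, SE 0.15, limma adjusted p = 0.906). Psmd14, the deubiquitinase of the lid, was at 33.8, 40.8 and 36.2 FPKM in knockout and 35.7, 29.7 and 33.4 FPKM in wild-type livers (0.16, SE 0.14, limma adjusted p = 0.718). The lid genes Psmd3, Psmd6, Psmd7, Psmd11, Psmd12 and Psmd13 had differences between -0.062 and 0.17 with adjusted p from 0.698 to 0.964, and their groups overlapped as well. Exons of Psmd13 overlap Sirt3 on the other strand over 10.1% of their bases. Psmd11 has a near-identical copy in the table, A730017L22Rik, at a mean of 1.97 FPKM against 49.9 FPKM for Psmd11.

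The chaperone genes of the base were low, with means of 15.2 FPKM (Psmd5), 11.4 FPKM (Psmd9) and 10.1 FPKM (Psmd10), and Psmd1, the lowest subunit gene, was clear of Psmd5 in all 6 libraries. Psmd10 (chromosome X, 140948429 to 140956728) encodes gankyrin, known as an oncoprotein in liver cancer. It was at 9.50, 7.84 and 8.18 FPKM in knockout and 9.83, 15.2 and 10.1 FPKM in wild-type livers. The groups did not overlap, although wild-type replicate 2 stood far above its own group (-0.40, SE 0.19, limma adjusted p = 0.50). Without that library the difference was -0.21. Psmd9 had a difference of -0.17 and Psmd5 of 0.07, with overlapping groups, and 25.5% of the exonic bases of Psmd9 are shared with Gm26745 on the other strand.

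**Figure D3:**
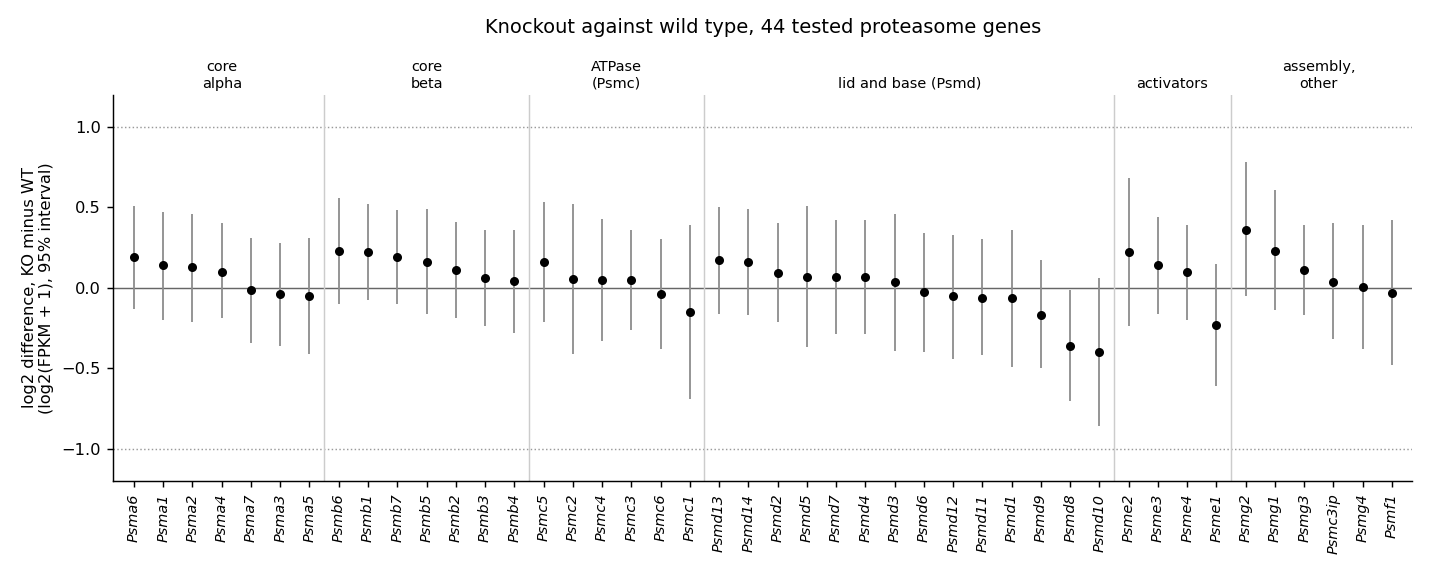
Log2 difference of Arid1a_KO_DDC minus WT_DDC on the log2(FPKM + 1) scale for the 44 tested proteasome genes, with the 95% interval from limma and dotted lines at -1 and 1. All 7 core beta points lie above 0, Psmd8 has the 1 interval that leaves out 0, and every interval lies within the dotted lines.

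Across all 44 tested genes the genotypes were close. The median log2 difference was 0.063, against 0.0034 over all genes tested, and 30 were positive and 14 negative. Single values ran from -0.40 (Psmd10) to 0.36 (Psmg2), so all 44 were within 0.5 log2 units of 0, as were 86.1% of all genes tested. For all 44 the 95% interval lay within 1 log2 unit of 0, against 78.1% of all genes, and for 29 it lay within 0.5. The groups did not overlap for 6 of the 44 (13.6%), against 16.6% over all genes. The knockout was higher without overlap in 4 of the 44 (Psmb1, Psmb5, Psmb7 and Psmg3), against 7.09% of all genes. It was lower without overlap in 2 of the 44 (Psmd8 and Psmd10), against 9.56% of all genes. The 1 unadjusted p under 0.05 made 2.27%, against 11.1%. A p that missed the threshold does not show that levels were equal, and 15 intervals still allowed a change of more than 0.5 log2 units.

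The median over the members differed between the library numbers. In the 4 libraries L0602 to L0605 alone, the median over the members was 0.15 (all genes 0.0072) and 0 members passed, with 2 at an unadjusted p under 0.05. The set L0566 and L0567 holds 1 library per genotype and allows no test of its own. As an interaction term in limma, the knockout effect in replicate 1 minus that in the other replicates had a median of -0.24 over the members. Replicate 1 holds 1 library per genotype, the spread in that fit comes from the other 4 libraries, and 0 of all 11839 genes passed (1072 at an unadjusted p under 0.05), so the 0 of 44 members that passed does not show equal effects. Without knockout replicate 1 the median was 0.14.

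The activators open the gate of the core without using ATP. Psme1 and Psme2 encode the subunits of an interferon-inducible ring, Psme3 a related nuclear ring, and Psme4 a large nuclear activator. Psme1 was at 134, 187 and 169 FPKM in knockout and 185, 190 and 195 FPKM in wild-type livers (-0.23, SE 0.16, limma adjusted p = 0.646). Psme2 was at 129, 170 and 137 FPKM in knockout and 101, 126 and 150 FPKM in wild-type livers (0.22, SE 0.19, limma adjusted p = 0.721). The groups overlapped for both genes, and in wild type the Psme1 libraries were tight while those of Psme2 spread. Without knockout replicate 1 the Psme1 difference was -0.10. The Psme2 difference was 0.10 without knockout replicate 2, 0.07 without wild-type replicate 1 and 0.36 without wild-type replicate 3.

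The ratio of Psme2 to Psme1 separated the genotypes although neither gene did. It was 0.964, 0.912 and 0.811 in knockout and 0.543, 0.662 and 0.770 in wild-type livers (exact two-sided permutation p = 0.1, the smallest that 3 against 3 libraries allow). The lowest knockout ratio and the highest wild-type ratio lay close together. This ratio was chosen after the values were seen. Psme2 has a near-identical coding copy, Psme2b, at 99.4% identity over 794 of 962 bases, which has no row in the table, so the share of its fragments in Psme2 is uncertain. Psme3 was at 26.1, 27.1 and 29.2 FPKM in knockout and 26.4, 23.1 and 24.9 FPKM in wild-type livers (0.14, limma adjusted p = 0.721). Psme4 was at 11.9, 13.9 and 13.1 FPKM in knockout and 12.2, 12.2 and 11.8 FPKM in wild-type livers (0.10, limma adjusted p = 0.815). Both nuclear activators were well below the interferon-inducible pair, and Psme2 was clear of Psme3 and Psme3 of Psme4 in every library.

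Of the assembly genes, Psmg2 had the largest positive difference. The Psmg products are chaperones that build the alpha ring. Psmg2 was at 15, 18.3 and 16.3 FPKM in knockout and 10.8, 15.8 and 11.6 FPKM in wild-type livers (0.36, SE 0.18, limma adjusted p = 0.50), with wild-type replicate 2 inside the knockout range. Psmg1, its partner in a heterodimer, was at 18, 22.7 and 20.8 FPKM in knockout and 14.7, 18.7 and 18.6 FPKM in wild-type livers (0.23, SE 0.16, limma adjusted p = 0.639). Psmg3 was at 18.8, 18.5 and 18.2 FPKM in knockout and 16.1, 17.7 and 17.3 FPKM in wild-type livers, with no overlap at a difference of 0.11. Psmg4, the most abundant of the 4, was at 56.3, 65.4 and 49.1 FPKM in knockout and 50.6, 55.6 and 64.1 FPKM in wild-type livers (0.002, limma adjusted p = 0.997). Psmf1, which encodes a proteasome-binding protein first known as an inhibitor, was at 15.5, 24.2 and 22.4 FPKM in knockout and 22.7, 20.3 and 19.6 FPKM in wild-type livers. Psmc3ip was at 2.84, 2.64 and 2.69 FPKM in knockout and 2.27, 2.47 and 3.18 FPKM in wild-type livers, the lowest of the tested genes, and shares 21.2% of its exonic bases with Mlx on the other strand.

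None of the genes tested that work with the proteasome passed either. Of 26 such genes outside the 45 (the assembly factors Pomp, Paaf1 and Akirin2, bound proteins such as deubiquitinases and shuttle factors, ubiquitin genes and regulators), 25 were tested. Among them are Adrm1 and Shfm1 (Sem1), at means of 70.9 and 46.8 FPKM. Their products are subunits of the regulatory particle that the name rule missed, so the sums over subunit genes leave them out. Limma called 0 of them higher or lower, against 0.49% of all genes tested in either direction. At an unadjusted p under 0.05, 1 was lower, against 6.5% of all genes, and 0 were higher. The median log2 difference was 0.043. For 22 of the 25 (88%) the 95% interval lay within 1 log2 unit of 0, against 78.1% of all genes. Their median coefficient of variation was 15.3%, against 21.1%. The groups did not overlap for 2 of the 25 (8%), Uchl5 higher and Zfand5 lower in knockout, against 16.6% of all genes. Pomp, the maturation factor of the core, was at 87.3, 108.8 and 87.6 FPKM in knockout and 112.7, 106.6 and 80.0 FPKM in wild-type livers (-0.069, limma adjusted p = 0.917). Uchl5 and Zfand5 are named here after their values were seen. The 1 gene with an unadjusted p under 0.05 was Zfand5, a proteasome-binding zinc finger gene. It was at 14.5, 18.4 and 14.4 FPKM in knockout and 21.8, 28.6 and 19.9 FPKM in wild-type livers, with no overlap and short of the threshold (-0.54, SE 0.18, limma adjusted p = 0.341).

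The immunoproteasome subunits, which replace the catalytic ones in cells exposed to interferon, had negative differences, and none passed. Psmb9, the counterpart of Psmb6, was at 12.4, 19.5 and 12.9 FPKM in knockout and 23.2, 21.3 and 24.0 FPKM in wild-type livers, without overlap (-0.61, SE 0.19, unadjusted p = 0.016, limma adjusted p = 0.305). Psmb8 was at 37.3, 64.1 and 55.4 FPKM in knockout and 68.4, 59.2 and 62.4 FPKM in wild-type livers (-0.30, limma adjusted p = 0.649). Psmb10 was at 43.3, 49.3 and 39.7 FPKM in knockout and 54.0, 44.3 and 44.2 FPKM in wild-type livers (-0.11, limma adjusted p = 0.835). Both overlapped between the genotypes, and knockout replicate 1 was the lowest library for Psmb8. Without that library the Psmb8 difference was -0.083, without knockout replicate 2 it was -0.47, and in L0602 to L0605 alone it was -0.027. For Psmb10 it was -0.19 without knockout replicate 2, -0.034 without knockout replicate 3, -0.011 without wild-type replicate 1 and -0.00057 in L0602 to L0605 alone.

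Set against the constitutive subunit of the same site, the share of each immunoproteasome transcript separated the genotypes. Psmb9 made 5.84%, 7.41% and 5.34% of Psmb6 plus Psmb9 in knockout and 11.5%, 10.2% and 10.6% in wild-type livers. Psmb10 made 26.0%, 27.4% and 22.1% of its pair with Psmb7 in knockout and 31.2%, 28.1% and 28.4% in wild-type livers. Psmb8 made 39.0%, 46.2% and 47.1% of its pair with Psmb5 in knockout and 54.2%, 50.5% and 52.1% in wild-type livers. In each pair all 3 knockout libraries were lower (exact two-sided permutation p = 0.1 each, the smallest possible). These shares were chosen after the values were seen. The uncertain sharing of fragments between Psmb5 and Gm3375 enters the Psmb8 share. Exons of Psmb8 overlap Gm20496 over 14.7% of their bases and those of Psmb9 overlap Tap1 over 5.79%, both on the other strand.

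All tested markers of immune cells had negative differences, and limma called 0 of them in either direction. The 6 macrophage markers summed to 270 to 383 FPKM in knockout and 437 to 570 FPKM in wild-type livers, with all 6 differences negative. The 6 T and NK cell markers, 4 of them tested, summed to 2.25 to 12 FPKM in knockout and 13.7 to 21.4 FPKM in wild-type livers. Of 4 neutrophil markers, 3 had values and 2 were tested. They summed to 12.1 to 24.8 FPKM in knockout and 29.8 to 55.3 FPKM in wild-type livers. The sums of the 5 B and plasma cell markers in the table overlapped, from 20.3 to 7688 FPKM in knockout and from 1532 to 5521 FPKM in wild-type livers, with knockout replicate 2 above every wild-type library. No marker of these lists was at 0 in all 6 libraries, and their part in the immunoproteasome shares was not tested.

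**Figure D4:**
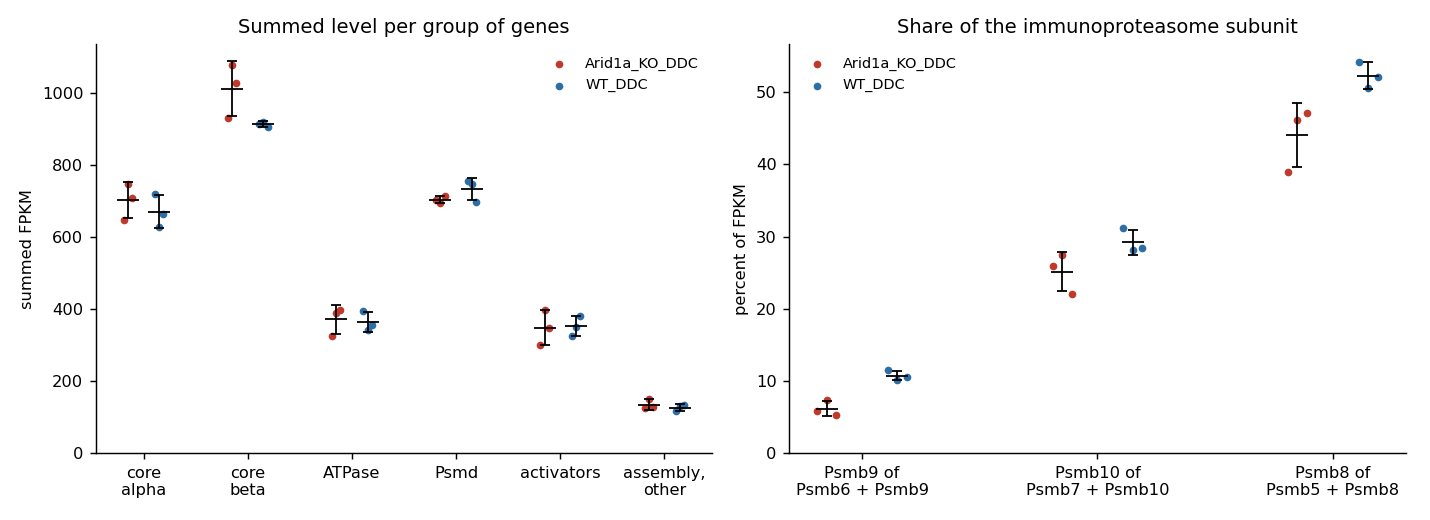
Left, FPKM summed over each group of proteasome genes (Psma8 left out of core alpha), and right, the share of Psmb9, Psmb10 and Psmb8 in the sum with the constitutive subunit of the same site, in percent. Points are libraries, Arid1a_KO_DDC in red left of WT_DDC in blue, and bars are mean and SD (n = 3 each): the beta sum was 1012 ± 75.1 FPKM in knockout and 914 ± 7.98 FPKM in wild type, and the Psmb9 share 6.2% ± 1.08 and 10.7% ± 0.656.

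The ratio of core to regulatory particle transcripts was slightly higher in the knockout libraries. Core genes (7 alpha and 7 beta) summed to 1579, 1827 and 1739 FPKM in knockout and 1636, 1550 and 1570 FPKM in wild-type livers. The 17 ATPase and Psmd subunit genes summed to 998, 1048 and 1078 FPKM in knockout and 1115, 1048 and 1018 FPKM in wild-type livers. Neither sum separated the genotypes. Their ratio was 1.58, 1.74 and 1.61 in knockout and 1.47, 1.48 and 1.54 in wild-type livers, without overlap. Its exact two-sided permutation p was 0.1, the smallest that 3 against 3 libraries allow. Psmd8, the most abundant Psmd transcript and lower without overlap in knockout, enters this ratio, and so do the beta genes. Whether the ratio separates the genotypes without Psmd8 was not tested, so it does not describe the particle as a whole. This ratio was chosen after the values were seen. The ratio of the core beta to the core alpha sum overlapped between the genotypes. That ratio was 1.43, 1.44 and 1.45 in knockout and 1.27, 1.47 and 1.36 in wild-type livers (exact two-sided permutation p = 0.4).

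Of the 44 tested genes, 8 (18.2%) have a protein-coding neighbour that starts on the other strand within 1000 bases upstream, against 10.5% of all tested protein-coding genes. The pairs named here were chosen after their values were seen. Among them are Psmc2 with Dnajc2 at 32 bases, Psma7 with Ss18l1 at 76 bases, Psmb1 with Tbp at 137 bases and Psmd10 with Atg4a at 179 bases. Ss18l1, which encodes a subunit of the neuronal BAF complex, was at 1.79, 1.09 and 1.08 FPKM in knockout and 1.03, 0.923 and 0.835 FPKM in wild-type livers, without overlap, while Psma7 overlapped (limma adjusted p = 0.65 and 0.983). Atg4a, an autophagy protease gene, was at 5.21, 5.62 and 7.41 FPKM in knockout and 10.2, 8.15 and 7.54 FPKM in wild-type livers, and had a negative difference like Psmd10 (-0.45, unadjusted p = 0.0426, limma adjusted p = 0.43). Rnf31, a ubiquitin ligase gene beside Psme2, was at 5.43, 9.07 and 8.12 FPKM in knockout and 14.1, 81.2 and 44.1 FPKM in wild-type livers (-2.19, limma adjusted p = 0.231), where the wild-type libraries differed among themselves by far more than those of Psme2. Cep76, beside Psmg2, did not overlap either (0.32, limma adjusted p = 0.481). The groups overlapped for Tbp, Mrpl32, Ftsj3 and Dnajc2, and over all genes tested 16.6% did not overlap. Whether neighbours vary together was not tested.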

How the data were processed

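Total liver RNA was sequenced from 3 Arid1a_KO_DDC and 3 WT_DDC libraries, grouped by their titles. The deposited values are on the log2 scale of FPKM, with the 6 libraries as columns. TopHat2 2.0.6, Cufflinks, mm10 and GRCm38 are named in the submitters' processing notes, and no source used here states the annotation, the strand setting or how listed genes were chosen. An FPKM of 0 stands as -10 in the table through an offset of 0.000977, which was subtracted (in 60069 values this gave numbers of 6 significant digits within 3e-08, for 100%). Depth was compared only through steps between values under 0.3 FPKM, so no counting interval is given.

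Genes with 1 FPKM or more in any 3 libraries were tested on log2(FPKM + 1), which understates changes of low genes, with limma 3.58.1 in R 4.3.3 (trend, two-sided, Benjamini-Hochberg over all 11839 genes, threshold 0.05). Errors are limma standard errors, or SD where ± is printed. The fit was tested on simulated data. An exact permutation test of 3 against 3 cannot go below 0.1. Members, lists and motifs were chosen with earlier results of these data known. Values in each library are given for the highest and lowest member of each group, the 2 with the smallest p, and Psmb5, Psmb6, Psmb7, Psmd4, Psmd14, the Psme genes and Psmc3ip whatever their values. Psmb3, Psmc2, Psmf1 and Psmg3 were added after their values were seen.

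Positions, exon overlaps and neighbours are from GENCODE M21, in which all 45 genes were found. Copies were sought as transcripts of other genes with at least 95% identity to the longest coding transcript over 200 bases or more (BLAST). Such matches were found for 14 of the 45. The matches to Nek6, Mlx, Sirt3, Gm21972 and Gm26938 are exon overlaps at the same locus and not separate copies. Alternatives were other pseudocounts, filters, scalings, variance models, a replicate block, the library numbers and each library left out. Some genes of the list outside the 45 are counted but not reported singly here.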

Additional observations from a re-analysis of the deposited data

How the results depend on the processing

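Under all 17 alternatives 0 proteasome genes passed in limma in either direction, with 0 to 2 at an unadjusted p under 0.05 and a smallest adjusted p of 0.213 to 0.751. The median over the members was 0.022 with quantile normalization, which moved the median of all genes to the same 0.022. It was 0.15 in L0602 to L0605 alone and 0.044 to 0.14 with 1 library left out, highest without Arid1a_KO_DDC replicate 1. Over all genes, 16 were higher and 42 lower. The number higher was 10 with no filter, 33 with a library number term and 26 in L0602 to L0605 alone, and it was 0 to 30 with 1 library left out, with the number lower 0 to 40. Without Arid1a_KO_DDC replicates 1, 2 and 3 in turn 30, 6 and 0 were higher and 37, 40 and 0 lower, and without WT_DDC replicates 1, 2 and 3 in turn 9, 0 and 0 were higher and 26, 6 and 2 lower, each from fewer libraries. With a replicate block 0 were higher and 0 lower. The numbers mark no known pairing: deviations from the group means correlated at 0.346, 0.133 and 0.0212 over genes for replicates 1, 2 and 3, and replicate 2 of Arid1a_KO_DDC correlated more with replicate 3 of WT_DDC (0.26).

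Of 492 named values, 22 changed sign, none past the threshold, and the cause was not tested. In L0602 to L0605 alone Psma7 was at 0.12, Psmc1 at 0.0084, Psmc3ip at -0.057, Psmc6 at 0.076, Psmg4 at -0.073, Nfe2l1 at -0.14 and Pomp at 0.079, and with quantile normalization Psmg4 was at -0.026. With 1 library left out the ranges were -0.072 to 0.061 for Psma7, -0.31 to 0.078 for Psmc1, -0.034 to 0.14 for Psmc3ip, -0.037 to 0.18 for Psmc4, -0.10 to 0.074 for Psmc6, -0.029 to 0.16 for Psmd4, -0.10 to 0.10 for Psmg4, -0.23 to 0.27 for Nfe2l1 and -0.22 to 0.026 for Pomp. FPKM without counts limits what can be said of low genes such as Psma8. Medians over groups of members also moved by over 1.5 times. That of core alpha (0.10) was 0.049 without Arid1a_KO_DDC replicate 2 and 0.04 without WT_DDC replicate 2. For core beta (0.16) it was 0.074 without Arid1a_KO_DDC replicate 2 and 0.24 in L0602 to L0605 alone. The lid and base median (0.0036) ran from -0.025 to 0.069 with 1 library left out and was 0.12 in L0602 to L0605 alone. With 1 library left out, those of the activators (0.12) and the assembly and other genes (0.076) ran from 0.075 to 0.16 and from 0.05 to 0.13.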
